A study of Arabidopsis thaliana with 25 samples.

Results

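Aquaporins are small channel proteins that let water and small uncharged solutes through membranes, and they formed the subject of the measurements described here, namely the messenger RNA of the whole family in roots of soil-grown Arabidopsis thaliana. The members were the 35 genes of the PIP, TIP, NIP and SIP subfamilies, picked by gene identifier from 27206 nuclear protein-coding genes with counts and not by any measured value. They comprised 5 PIP1, 8 PIP2, 10 TIP, 9 NIP and 3 SIP genes. The files carry identifiers only, and the names are written in the hyphenated form of protein databases.

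In plants the plasma membrane intrinsic proteins (PIPs) carry much of the water that crosses cell membranes, and PIP1 proteins generally depend on PIP2 partners to reach the plasma membrane. The tonoplast intrinsic proteins (TIPs) sit in the vacuole membrane, the small basic intrinsic proteins (SIPs) in the endoplasmic reticulum. Nodulin 26-like intrinsic proteins (NIPs) mostly conduct solutes such as boric acid, arsenite or lactic acid. In roots, aquaporins set a large part of hydraulic conductivity, and phosphate shortage is known to lower that conductivity in several species.

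Roots of 8-week-old plants grown in short days (6 h of light) were profiled by poly(A) RNA-Seq without strand information, in 25 libraries. Col-0 is the wild type. The other genotypes, both in the Col-0 background, were phf1, mutated in a gene that phosphate transporters need to leave the endoplasmic reticulum, and phr1 phl1, mutated in a pair of transcription factor genes that drive the phosphate starvation response. Soils came from a long-term field trial with low, medium or high P fertilization, and low+P pots held low P soil given 12.6 mg of P per pot during growth. For Col-0 and for phf1, 3 libraries were available from every long-term soil and 2 from low+P pots, and for phr1 phl1 there were 2 low P libraries and 1 labelled low+P. Libraries of a group came from soil of different field plots, but groups shared plots, all 3 between Col-0 and phf1 in low P and in high P, 2 of 3 in medium P and 1 of 2 in low+P, so that groups compared are not independent in soil. Low P and low+P shared 1 plot in Col-0 and 2 in phf1. In low P, Col-0 and phr1 phl1 shared no plot. Which library came from which plot is not given with the counts. Pots were harvested in random order, and the letters A, B and C that tell libraries of a group apart carry no order. The p values measure the spread between these libraries. In bulk roots, fewer cells of a type and less RNA per cell cannot be told apart.

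Total counts ranged from 2368981 to 7408960 (median 4391517) per library. The level of PHR1 (AT4G28610), in counts scaled to the library total (CPM), was 31.9 and 37.9 in phr1 phl1 plants from low P soil and 48.97 to 77.9 in Col-0 and phf1. The single library with the label phr1 phl1 low+P had 73.6, which goes against that label. PHL1 was not lower in the double mutant, since both low P libraries (79.3 and 95.9 CPM) lay above the Col-0 range of 13.9 to 63.6. PHF1 ran from 8.997 to 29.1 CPM in phf1 and from 14.9 to 46.9 in Col-0, which overlap, so these levels do not check the labels. That library and phf1 low+P A were also the most alike of all 300 pairs of libraries (median chi-square 0.824 over 17363 genes, where sampling alone gives 0.455). Markers of root cell types were present but uneven. Those of root hairs (COBL9 and EXP7) were at 0 in 5 libraries and reached 86.4 CPM in Col-0 low P C, and those of the endodermis (CASP1 and SCR) ranged from 2.12 to 236 CPM. Summed leaf markers ran from 13.3 to 1715 CPM, and seed markers did not exceed 0.204 CPM.

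The pore of an aquaporin is lined by 2 loops that each carry an asparagine-proline-alanine (NPA) box, and the codons of these boxes are shown because they differ between the channel types that the results turn on. Every coding sequence of the 35 members, taken from RefSeq on TAIR10.1, held 2 such boxes or variants of them. In 27 members both read NPA, among them all 13 PIPs and all 10 TIPs, whereas 8 members had another box. The stretches below run 5′ to 3′ with the codons of the box in capitals.
PIP2-1 first box (NPA): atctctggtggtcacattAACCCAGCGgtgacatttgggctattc
PIP2-1 second box (NPA): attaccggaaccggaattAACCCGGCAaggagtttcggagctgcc
TIP1-1 first box (NPA): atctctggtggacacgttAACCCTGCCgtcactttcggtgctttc
TIP1-1 second box (NPA): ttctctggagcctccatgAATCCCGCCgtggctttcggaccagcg
NIP5-1 first box (NPS): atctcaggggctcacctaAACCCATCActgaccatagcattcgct
NIP5-1 second box (NPV): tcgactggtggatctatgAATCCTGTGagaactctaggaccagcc
NIP6-1 first box (NPA): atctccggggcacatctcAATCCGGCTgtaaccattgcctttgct
NIP6-1 second box (NPV): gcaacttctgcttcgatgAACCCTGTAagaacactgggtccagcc
NIP1-1 first box (NPA): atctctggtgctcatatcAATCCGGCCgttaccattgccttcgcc
NIP1-1 second box (NPG): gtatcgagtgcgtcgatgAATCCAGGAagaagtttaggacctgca
SIP1-2 first box (NPC): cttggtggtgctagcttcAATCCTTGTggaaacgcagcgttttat
SIP1-2 second box (NPA): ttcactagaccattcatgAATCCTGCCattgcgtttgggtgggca
NIP5-1 and NIP6-1, both boric acid channels, shared valine in the second box, NIP1-1 had glycine there, and each of the 3 SIPs departed from NPA in the first box only.

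Another pair of sequences bears on how far counts can be assigned. PIP2-2 (chromosome 2, 15613368 to 15615022, minus strand) and PIP2-3 (chromosome 2, 15617635 to 15619155, plus strand) are tandem copies. Their coding sequences of 858 bases differed at 45 positions (94.8% identity), and the longest identical run spanned 242 bases. The stretch below, coding positions 414 to 473, was the 60-base window with the most differences, 10 in all, shown in capitals.
PIP2-2: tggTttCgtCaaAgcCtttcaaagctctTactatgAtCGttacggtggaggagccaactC
PIP2-3: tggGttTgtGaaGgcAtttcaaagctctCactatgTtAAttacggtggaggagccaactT
By contrast, the following 100 bases from coding position 175 read the same in both genes.
PIP2-2 and PIP2-3: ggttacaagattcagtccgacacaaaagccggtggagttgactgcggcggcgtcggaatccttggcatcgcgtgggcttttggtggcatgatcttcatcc
Of all 50-base stretches of their transcripts, 19.6% of PIP2-2 and 21.7% of PIP2-3 occurred in another gene, so reads from these stretches cannot be assigned to one copy and the counts of both are uncertain to that extent. For NIP2-1, 61.9% of the exon bases lie within exons of other annotated genes, and its counts cannot be told apart from theirs in libraries without strand. SIP2-1 had such overlap over 13.1% of its exon bases and NIP6-1 over 2.15%, and SIP1-2 had none.

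Levels spanned several orders of magnitude, with PIP and TIP genes on top. Given as CPM per kilobase of exon and as mean ± SD over the 25 libraries, PIP2-1 reached 723 ± 258, PIP1-2 685 ± 302 and TIP1-2 683 ± 456. They were followed by PIP1-3 at 582 ± 204, PIP1-1 at 396 ± 166 and TIP1-1 at 328 ± 292. These 6 members made up 69.6% of the family's summed level. The order was not a firm one, since each neighbour in it differed by less than the larger of their SDs down to the thirteenth member. PIP2-1 exceeded PIP1-2 in 13 of the 25 libraries, PIP1-2 exceeded TIP1-2 in 13, and TIP1-2 exceeded PIP1-3 in 11. PIP1-3 was above PIP1-1 more often, in 19 of 25.

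Far below these came most NIPs. NIP1-2, a channel for aluminium malate, averaged 36.4 CPM per kilobase, NIP5-1 averaged 11.2 and NIP6-1 6.44. Members known from seeds or pollen were nearly silent. TIP3-1 and TIP3-2, the vacuolar channels of seeds, averaged 0.369 and 0.0973, and TIP5-1, known from pollen, had 1 count in 1 library. NIP4-1 had no count in any library, and with 110386570 counts in all a count of 0 allows up to 0.0272 CPM. TIP1-3, TIP3-1, TIP3-2, TIP5-1, NIP4-1, NIP4-2 and NIP7-1, none above 2.16 CPM in any library, did not pass the filter on low counts, so 28 of the 35 members were tested.

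**Figure D1:**
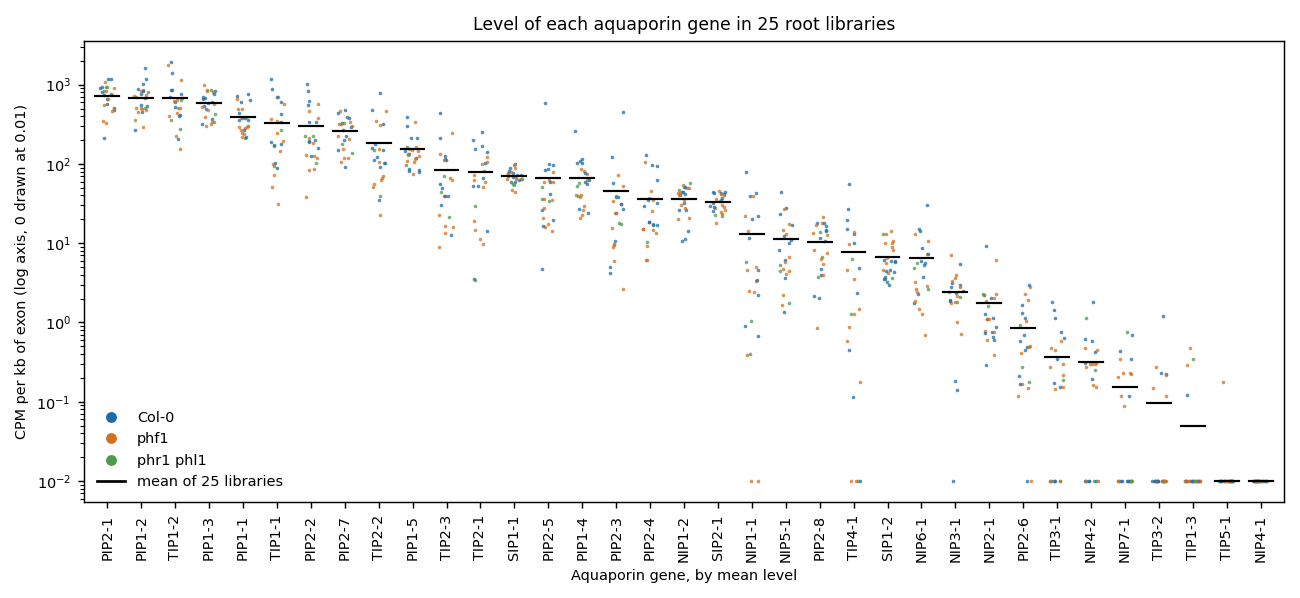
Level of each of the 35 aquaporin genes in the 25 libraries, in CPM per kilobase of exon on a log axis, with values of 0 drawn at 0.01, points coloured by genotype and a bar at the mean. PIP and TIP genes fill the top, with PIP2-1 at a mean of 723, and NIP4-1 has no count in any library.

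By subfamily, PIP1 genes held on average 40.7% of the summed level of the family (29.7% to 50.4% over libraries) and PIP2 genes 29.8% (22.4% to 41.5%). TIPs held 25.3%, from 10.7% to 45.2%. Their summed level varied most and differed 16.8-fold between phf1 low P B (236 CPM per kilobase) and Col-0 high P B (3967). For PIP1 the corresponding ratio was 2.91, for PIP2 5.29, for NIP 6.76 and for SIP 2.23. All aquaporins together took 0.336% to 1.27% of the counts of a library.

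The values by library show how much of the family's variation lay within groups. PIP2-1 is a major water channel of root cells. In Col-0, PIP2-1 (AT3G53420) had 1042, 750.3 and 1284 CPM in low P, 1852, 1443 and 1192 in medium P, 337, 903 and 1484 in high P, and 1840.5 and 1158 in low+P. In phf1, PIP2-1 had 1303, 739.8 and 1486 CPM in low P, 1032, 1682 and 1169 in medium P, 517, 547 and 869 in high P, and 1430.3 and 797 in low+P. In phr1 phl1, PIP2-1 had 798 and 1303 CPM in low P, with 1460.4 in the library labelled low+P. Within Col-0 every group of PIP2-1 overlapped every other, and within phf1 the only groups apart were high P and medium P, with high P lower. In phr1 phl1 the library labelled low+P lay above both low P libraries. PIP1-2 is another of the most abundant PIPs of Arabidopsis roots. In Col-0, PIP1-2 (AT2G45960) had 1069.6, 729 and 1399.7 CPM in low P, 2628, 1629 and 866 in medium P, 431, 1339 and 1908 in high P, and 1226 and 884 in low+P. In phf1, PIP1-2 had 1339.8, 578 and 1377 CPM in low P, 1167, 779 and 823 in medium P, 474, 715 and 1200.5 in high P, and 805 and 765 in low+P. In phr1 phl1, PIP1-2 had 1127 and 1299 CPM in low P, with 810.0 in the library labelled low+P. Col-0 medium P A and B and Col-0 high P C had the highest PIP1-2 values, and Col-0 high P A the lowest. PIP1-3 and PIP1-1 belong to the same subfamily. In Col-0, PIP1-3 (AT1G01620) had 489, 573 and 1295 CPM in low P, 1043, 1166 and 1096 in medium P, 769, 936 and 831 in high P, and 901 and 1013 in low+P. In phf1, PIP1-3 had 488, 601 and 1240.2 CPM in low P, 882, 1518 and 1319 in medium P, 749, 819 and 469.9 in high P, and 1289 and 523 in low+P. In phr1 phl1, PIP1-3 had 531 and 663 CPM in low P, with 1315 in the library labelled low+P. Values of PIP1-3 in low P were split, with library C of both Col-0 and phf1 well above A and B. In Col-0, PIP1-1 (AT3G61430) had 584, 591 and 1197 CPM in low P, 987, 562 and 689 in medium P, 344, 1114 and 937 in high P, and 421 and 566 in low+P. In phf1, PIP1-1 had 412, 366 and 769 CPM in low P, 1033, 453 and 456 in medium P, 377, 440.5 and 769 in high P, and 608 and 340.5 in low+P. In phr1 phl1, PIP1-1 had 327 and 468 CPM in low P, with 602 in the library labelled low+P. For PIP1-1 the same library C stood highest in the low P groups of Col-0 and phf1. The vacuolar channel genes TIP1-2 and TIP1-1 were split further. In Col-0, TIP1-2 (AT3G26520) had 267, 515 and 2517 CPM in low P, 991, 782 and 1101 in medium P, 542, 1793 and 1111 in high P, and 912 and 668 in low+P. In phf1, TIP1-2 had 518, 199 and 1472 CPM in low P, 2311, 818 and 665 in medium P, 563, 654 and 868 in high P, and 801 and 289 in low+P. In phr1 phl1, TIP1-2 had 356 and 462 CPM in low P, with 838 in the library labelled low+P. TIP1-2 in Col-0 low P C was the highest of all 25 libraries, beside 267 CPM in library A of the same group. In Col-0, TIP1-1 (AT2G36830) had 125, 236 and 1099 CPM in low P, 525, 741 and 423 in medium P, 111, 1452 and 861 in high P, and 223 and 212 in low+P. In phf1, TIP1-1 had 88.7, 38.6 and 705 CPM in low P, 861, 241 and 181 in medium P, 125, 455 and 426 in high P, and 302 and 64.05 in low+P. In phr1 phl1, TIP1-1 had 117 and 208 CPM in low P, with 331 in the library labelled low+P. In low P, TIP1-1 differed several-fold between libraries of one group, as in Col-0 and in phf1, and the range of phf1 low P covered all other phf1 values but 1, that of medium P A. TIP2-2 is a further vacuolar channel. In Col-0, TIP2-2 (AT4G17340) had 124, 164 and 203 CPM in low P, 434, 241 and 216 in medium P, 47.3, 1057 and 643 in high P, and 150.1 and 139 in low+P. In phf1, TIP2-2 had 88.98, 31.00 and 477 CPM in low P, 631, 141 and 96.5 in medium P, 76.7, 85.6 and 419.5 in high P, and 208 and 70.1 in low+P. In phr1 phl1, TIP2-2 had 54.1 and 137 CPM in low P, with 203 in the library labelled low+P. The highest TIP2-2 values lay in Col-0 high P B and C and in phf1 medium P A.

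Among the 28 tested members, 25 had a biological coefficient of variation above the median of all genes in the fit of 25 libraries, and 18 were among the 25% most variable. The median of the members was 0.646. TIP4-1 (1.47, at the 98.8th percentile of all genes) and NIP1-1 (1.29, 97.8th) varied most, and the SIPs least, with 0.227 in SIP1-1, 0.248 in SIP2-1 and 0.322 in SIP1-2. Single libraries accounted for many extremes. Col-0 low P C was the highest of the 25 for 9 of the 28 members, Col-0 medium P A and Col-0 high P B for 5 each, and phf1 low P B was the lowest for 8.

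Many members rose and fell together over libraries. Over the 378 pairs of members, Pearson's r of log2(CPM + 1) had a median of 0.333 and ran from -0.686 to 0.944. As a description over 25 libraries that share genotype, soil and library depth, the closest pairs were TIP1-1 with TIP2-3 (0.944), PIP2-2 with TIP2-2 (0.928) and TIP4-1 with NIP1-1 (0.918). Membership of one subfamily made little difference, with a median of 0.326 over 71 pairs within and 0.335 over 307 pairs between PIP1, PIP2, TIP, NIP and SIP. A block picked after its values were seen, TIP1-1, TIP1-2, TIP2-2, TIP2-3, PIP1-1 and PIP2-2, had r of 0.789 to 0.944 in its 15 pairs. NIP1-2 went the other way, with r below 0 in 24 of its 27 pairs. The lowest value of all, -0.686, was that of PIP1-5 with PIP2-5.

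**Figure D2:**
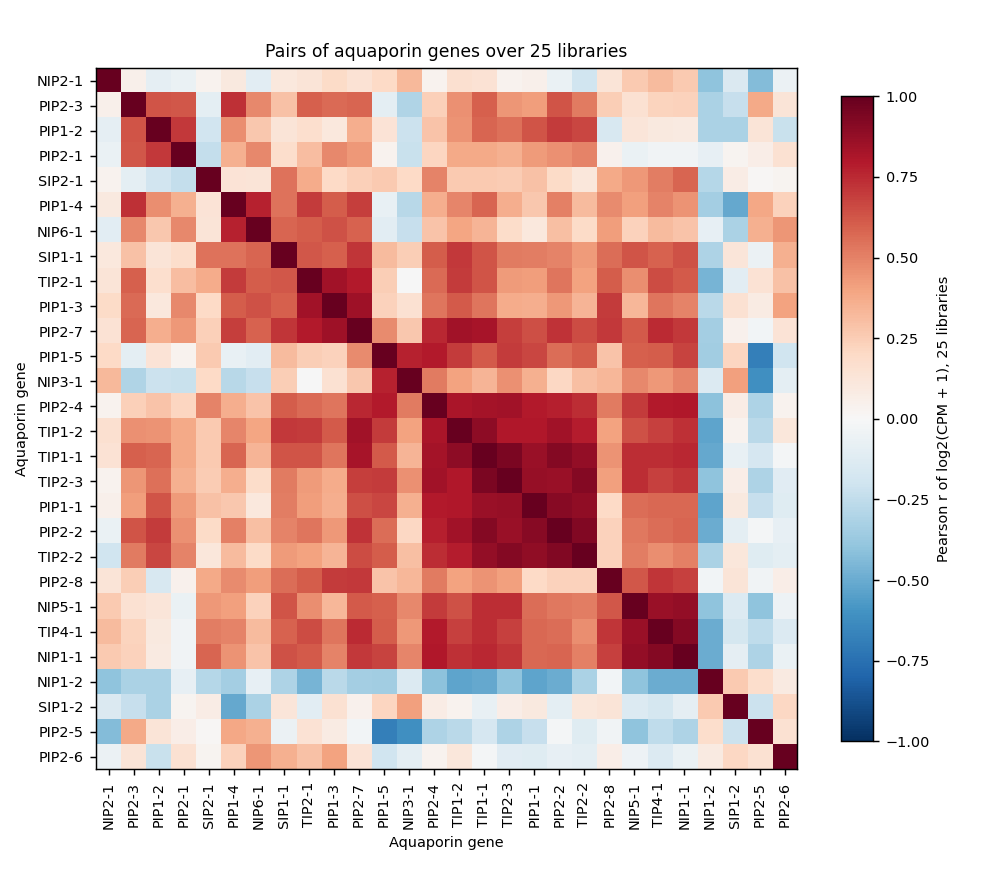
Pearson's r of log2(CPM + 1) over the 25 libraries for each pair of the 28 tested aquaporins, as a colour from -1 to 1. TIP1-1, TIP1-2, TIP2-2, TIP2-3, PIP1-1 and PIP2-2 form a block at 0.789 or more, and NIP1-2 has r below 0 with 24 of the 27 others.

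The levels were then set against 6 measures of each library, namely the summed markers of root hairs, endodermis and leaf, 10 genes that respond to water deficit, the difference between morning and evening clock genes, and total counts. These are 168 relations over 25 libraries, tested by permutation with 100000 resamples and adjusted by Benjamini-Hochberg over all of them. The permutation shuffled all 25 libraries freely, without regard to genotype, P regime or plot. Because libraries share these, the p values and the counts below can overstate the evidence. At an adjusted p below 0.05 for Pearson's r, 17 members rose with the root hair markers and 1 fell, and 13 rose with the endodermis markers. With the water deficit genes, 15 members rose and 1 fell. With the clock measure 5 rose and 1 fell, and leaf markers and total counts had 2 and 1 such relations. Such relations were not computed for genes outside the family, so these counts have no share over all genes beside them.

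NIP5-1, which takes up boric acid into root cells, followed the endodermis markers most closely, and NIP1-1, a channel known to let arsenite in, did so too. In Col-0, NIP5-1 (AT4G10380) had 13.4, 17.8 and 96.4 CPM in low P, 2.92, 51.2 and 27.03 in medium P, 21.5, 60.1 and 37.1 in high P, and 7.96 and 23.6 in low+P. In phf1, NIP5-1 had 4.78, 3.61 and 38.3 CPM in low P, 31.9, 14.3 and 10.4 in medium P, 9.56, 58.4 and 28.3 in high P, and 12.7 and 8.76 in low+P. In phr1 phl1, NIP5-1 had 3.8 and 11.4 CPM in low P, with 9.72 in the library labelled low+P. Col-0 low P C was the highest of all libraries for NIP5-1, beside 13.4 and 17.8 CPM in A and B, and its endodermis markers stood at 236 CPM beside 15.2 and 20.8. In Col-0, NIP1-1 (AT4G19030) had 0.994, 6.74 and 116 CPM in low P, 1.33, 16.9 and 62.5 in medium P, 29.5, 56.5 and 32.1 in high P, and 3.24 and 5.04 in low+P. In phf1, NIP1-1 had 0, 0 and 20.9 CPM in low P, 31.9, 6.76 and 3.62 in medium P, 0.562, 57.9 and 4.88 in high P, and 7.32 and 3.55 in low+P. In phr1 phl1, NIP1-1 had 0.585 and 1.52 CPM in low P, with 8.4 in the library labelled low+P. NIP1-1 was not counted in phf1 low P A and B, in which no root hair marker was counted either. For NIP5-1 and the endodermis markers Pearson's r was 0.932 and Spearman's rho 0.908, each with a permutation p of 1e-05, the smallest the resamples can give (adjusted p = 0.00024 and 0.00028). Within the 11 Col-0 libraries r was 0.941 and within the 11 phf1 libraries 0.948, and without the 2 libraries farthest from the median of the markers it was 0.909. The corresponding values for NIP1-1 were r = 0.917 and rho = 0.942 (permutation p = 1e-05 for both, adjusted p = 0.00024 and 0.00028), 0.911 in Col-0, 0.945 in phf1 and 0.947 without the 2 farthest.

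TIP4-1, a vacuolar channel that was named here after its values were seen, followed the root hair markers. Its CPM ran from 0 to 66.3 in Col-0 and from 0 to 16.2 in phf1. Pearson's r was 0.936 and rho 0.937 (permutation p = 1e-05 for both, adjusted p = 0.00024 and 0.00028), with 0.965 in Col-0, 0.939 in phf1 and 0.920 without the 2 farthest libraries. The summed root hair and endodermis markers were themselves highest in the same libraries, Col-0 low P C (86.4 and 236 CPM) and phf1 high P B (41.3 and 146). A relation to one of these marker sets therefore does not single out that cell type. These 3 genes and the markers are counts from the same libraries, and whether the share of any root tissue in a sample moved them was not tested.

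PIP1-4, which rises in Arabidopsis leaves under drought, had the closest relation to the water deficit genes, and PIP2-3, first known as a desiccation-responsive gene, also rose with them. For PIP1-4, also named after its values were seen, r was 0.760 and rho 0.775 (permutation p = 1e-05 and 2e-05, adjusted p = 0.00024 and 0.00037), with 0.793 in Col-0, 0.730 in phf1 and 0.650 without the 2 farthest libraries. For PIP2-3, r was 0.661 and rho 0.611 (permutation p = 0.00027 and 0.0014, adjusted p = 0.0022 and 0.0064), with 0.764 in Col-0, 0.607 in phf1 and 0.643 without the 2 farthest.

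PIP1-2 fell with the leaf markers and rose with the morning-over-evening measure of the clock, and PIP2-1 rose with the clock measure too. For PIP1-2 and leaf markers r was -0.629 and rho -0.698 (permutation p = 0.00074 and 0.00019, adjusted p = 0.0043 and 0.0017), with -0.809 in Col-0, -0.636 in phf1 and -0.641 without the 2 farthest libraries. For PIP1-2 and the clock r was 0.669 and rho 0.652 (permutation p = 0.00022 and 0.00055, adjusted p = 0.0021 and 0.0033), with 0.595 in Col-0, 0.627 in phf1 and 0.575 without the 2 farthest. For PIP2-1 and the clock r was 0.652 and rho 0.615 (permutation p = 0.00028 and 0.0012, adjusted p = 0.0022 and 0.0058), with 0.812 in Col-0, 0.607 in phf1 and 0.587 without the 2 farthest. The time at which each pot was harvested is not among the labels, and its part in these relations was not tested.

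**Figure D3:**
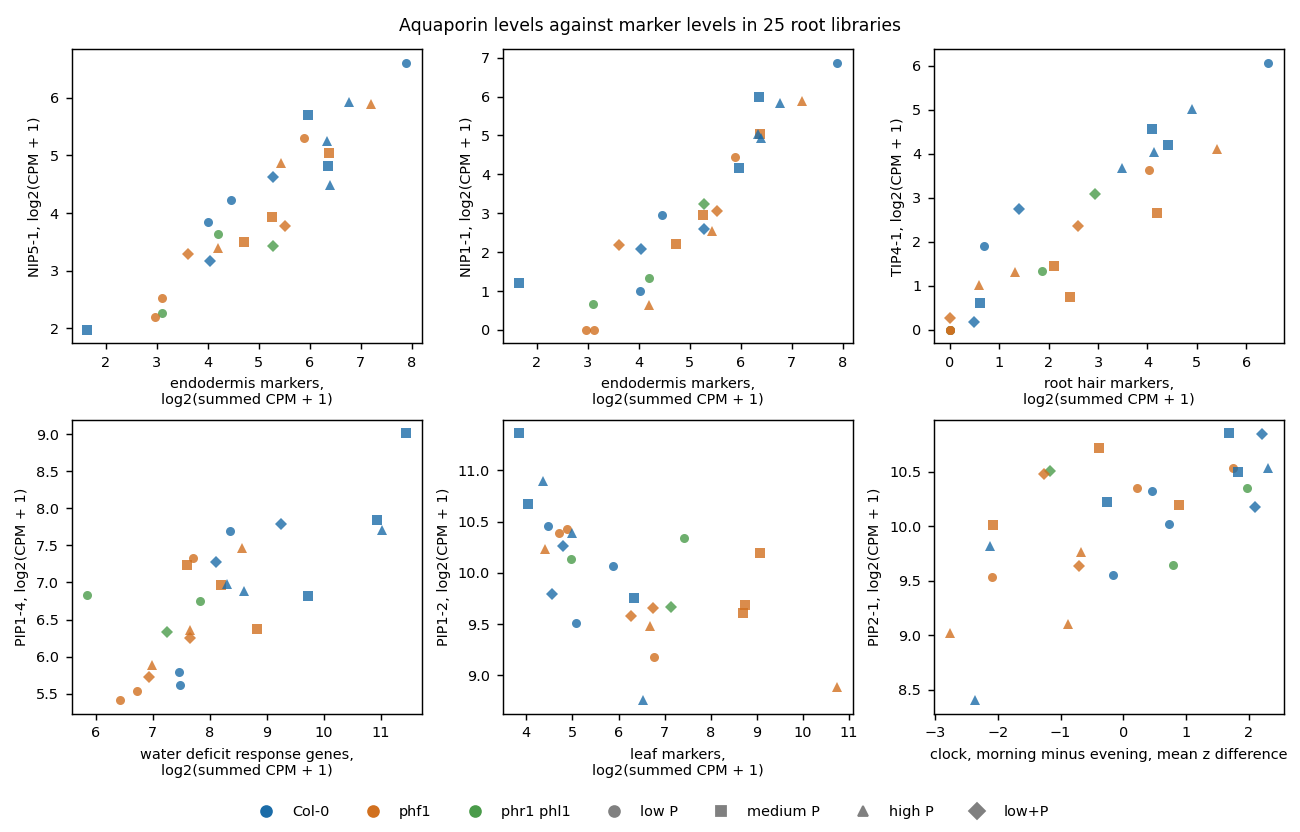
Aquaporin levels against marker levels over the 25 libraries, both as log2(CPM + 1) except for the clock, with points coloured by genotype. The clock measure is the mean of morning genes minus that of evening genes, each gene first centred and divided by its SD over libraries. NIP5-1 and NIP1-1 rise with the endodermis markers (r = 0.932 and 0.917), TIP4-1 with the root hair markers (0.936), PIP1-4 with the water deficit genes (0.760) and PIP2-1 with the clock (0.652), while PIP1-2 falls with the leaf markers (-0.629).

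The first comparison asked which aquaporins respond to P added to low P soil. No member passed an adjusted p of 0.1 in the quasi-likelihood test of edgeR, adjusted by Benjamini-Hochberg over 18830 genes, either across the 6 groups of both pot types or for Col-0 alone (background 0 and 0.00531% of all genes called). Across the 6 groups 2 of 28 members had an unadjusted p below 0.05, beside 3.6% of all genes, and DESeq2 called no member beside 1.15% of genes. For Col-0 alone these were 3 of 28 members beside 7.27% of genes, and again no member by DESeq2 beside 1.49%. The 3 were NIP6-1, PIP2-5 and PIP1-5.

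NIP6-1, a boric acid channel known from shoot nodes, had its highest value in Col-0 low+P. In Col-0, NIP6-1 (AT1G80760) had 2.73, 2.15 and 6.79 CPM in low P, 6.37, 18.4 and 10.6 in medium P, 8.86, 4.55 and 7.2 in high P, and 36.6 and 17.3 in low+P. In phf1, NIP6-1 had 3.19, 1.8 and 15.8 CPM in low P, 3.54, 8.96 and 12.8 in medium P, 2.25, 3.88 and 1.54 in high P, and 2.96 and 0.835 in low+P. In phr1 phl1, NIP6-1 had 3.21 and 6.83 CPM in low P, with 5.97 in the library labelled low+P. Both Col-0 low+P libraries lay above all 3 Col-0 low P libraries. In phf1, the low+P libraries (2.96 and 0.835 CPM) lay within or below the range of low P. Between low P and low+P, NIP6-1 had a log2 fold change of -2.79 (SE 0.88, unadjusted p = 0.00961, adjusted p = 0.473 in edgeR) in Col-0 and of 1.83 (SE 0.97, unadjusted p = 0.0862, adjusted p = 1) in phf1. As each library was left out the phf1 value ran from 0.42, without phf1 low P C, to 2.98, without phf1 low+P A. The difference of these responses was -4.63 (SE 1.32, unadjusted p = 0.00549), with an adjusted p of 0.99999 in edgeR and 0.350 in DESeq2, and ran from -3.21 to -5.75 as each library was left out. It was thus larger than its error but did not pass the adjustment. In that test of the difference edgeR called no member and no other gene, and 2 of 28 members had an unadjusted p below 0.05 beside 3.9% of genes.

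PIP2-5, which rises in leaves under drought, was the other of the 2. In Col-0, PIP2-5 (AT3G54820) had 46.7, 74.2 and 8.41 CPM in low P, 1064, 149.8 and 35.3 in medium P, 173, 29.6 and 106 in high P, and 181 and 154 in low+P. In phf1, PIP2-5 had 28.7, 114 and 104 CPM in low P, 25.5, 36.8 and 143 in medium P, 65.4, 105 and 31.1 in high P, and 50.05 and 62.2 in low+P. In phr1 phl1, PIP2-5 had 65.5 and 91.8 CPM in low P, with 60.8 in the library labelled low+P. Col-0 medium P A, at 1064 CPM, stood far above the other 24 libraries. In Col-0 low P all 3 PIP2-5 values lay below both low+P values, whereas the phf1 groups overlapped. The log2 fold change was -2.01 in Col-0 (SE 0.67, unadjusted p = 0.0133, adjusted p = 0.500 in edgeR) and the difference of the responses -2.50 (SE 0.98, unadjusted p = 0.0276, adjusted p = 0.99999). PIP1-5 is a PIP1 channel. In Col-0, PIP1-5 (AT4G23400) had 158, 177 and 396 CPM in low P, 106, 111 and 282 in medium P, 196, 513 and 282 in high P, and 109.6 and 115 in low+P. In phf1, PIP1-5 had 176, 100.2 and 201 CPM in low P, 446, 192 and 166 in medium P, 144, 139.7 and 205 in high P, and 215 and 152 in low+P. In phr1 phl1, PIP1-5 had 130.3 and 173 CPM in low P, with 219.9 in the library labelled low+P. All 3 Col-0 low P values of PIP1-5 lay above both low+P values, with a log2 fold change of 1.15 (SE 0.47, unadjusted p = 0.0332, adjusted p = 0.643 in edgeR). NIP6-1, PIP2-5 and PIP1-5 were listed here by their p in this same comparison. The separation of their Col-0 values therefore adds no support, and no share over all genes is given for it.

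Taken over the 28 tested members, 17 had a positive and 11 a negative fold change in Col-0 low P over low+P, with a median log2 of 0.23 beside 52.2% positive over all genes. That median rested on 1 library. Without Col-0 low P C it was -0.38. In phf1 no member had an unadjusted p below 0.05, beside 0.898% of genes, and edgeR and DESeq2 called no member and no gene. There 21 members were higher and 7 lower in low P, with a median of 0.31 beside 52.6% of genes positive. Apart from NIP6-1, PIP1-2 had the smallest p of the phf1 comparison, at a log2 fold change of 0.47, and its low P and low+P values overlapped.

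**Figure D4:**
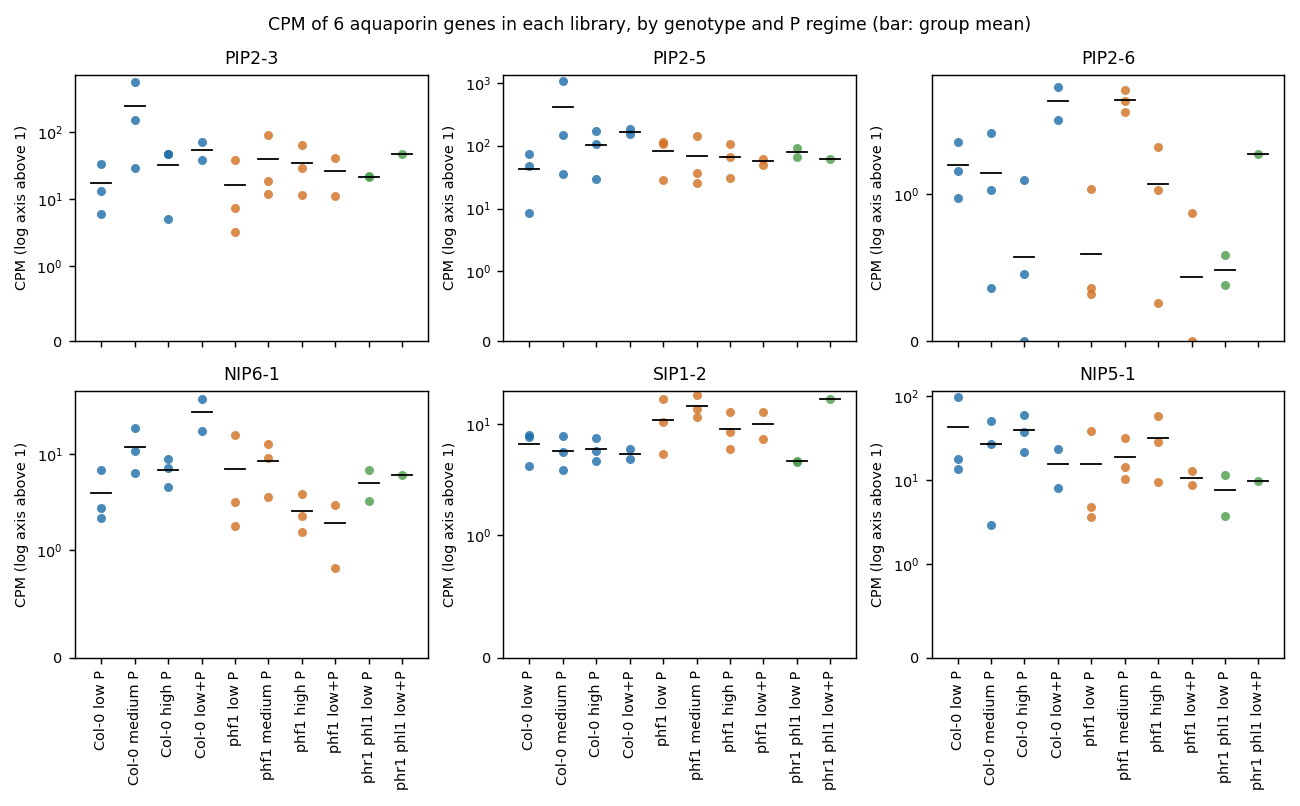
CPM of PIP2-3, PIP2-5, PIP2-6, NIP6-1, SIP1-2 and NIP5-1 in the 10 groups, 1 point per library, with a bar at the group mean. PIP2-3 and PIP2-5 are highest in Col-0 medium P A (554 and 1064 CPM), NIP6-1 in Col-0 low+P, and SIP1-2 is higher in most phf1 libraries than in Col-0.

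The genotypes were then compared in low P. For phf1 over Col-0, edgeR and DESeq2 called no member (0.00531% and 0.167% of genes called), and 0 of 28 had an unadjusted p below 0.05 beside 4.65% of genes. With 3 libraries in each group, the values of all 28 members overlapped between the genotypes, for which no share over all genes is given. Of the members 8 were higher and 20 lower in phf1, with a median log2 of -0.32 beside 50.5% of genes negative, but without Col-0 low P C the median was 0.45, so the direction was that of 1 library. The same held for NIP2-1, a lactic acid channel that rises in oxygen shortage. In Col-0, NIP2-1 (AT2G34390) had 1.24, 1.53 and 12.9 CPM in low P, 1.06, 1.02 and 2.88 in medium P, 0.844, 0.911 and 1.8 in high P, and 0.405 and 1.62 in low+P. In phf1, NIP2-1 had 2.87, 1.08 and 0.545 CPM in low P, 1.06, 3.17 and 3.11 in medium P, 2.62, 8.64 and 1.54 in high P, and 1.57 and 0.835 in low+P. In phr1 phl1, NIP2-1 had 3.21 and 2.28 CPM in low P, with 3.09 in the library labelled low+P. NIP2-1 in Col-0 low P C, at 12.9 CPM, was the highest of all libraries. Its log2 fold change of -1.87 (SE 1.05, unadjusted p = 0.105, adjusted p = 0.938 in edgeR) became 0.14 without that library.

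In phr1 phl1 over Col-0, edgeR and DESeq2 again called no member (0% and 1.01% of genes), and 2 of 28 had an unadjusted p below 0.05 beside 7.54% of genes. These groups shared no field plot, with 3 plots in Col-0 and 2 in phr1 phl1. Genotype and plot therefore cannot be told apart in this comparison. All 6 tested TIPs were lower in phr1 phl1, with a median of -1.57, and all 3 SIPs were lower. The summed TIP level of the mutant was 557 and 896 CPM. Col-0 low P A and B had 568 and 1001 CPM, whereas C had 4337. In the same comparison both root hair markers (median -4.57) and both endodermis markers (median -2.87) were lower, none with an unadjusted p below 0.05, and their part was not tested. Over all members 7 were higher and 21 lower, with a median of -0.76 beside 52.2% of genes negative. Without Col-0 low P C the median was -0.05. NIP1-1, shown above, had a log2 fold change of -5.39 (SE 2.43, unadjusted p = 0.0499, adjusted p = 0.639 in edgeR), and of -1.79 without Col-0 low P C. Its CPM in phr1 phl1, 0.585 and 1.52, overlapped the range of Col-0. The other was SIP2-1, a channel of the endoplasmic reticulum. In Col-0, SIP2-1 (AT3G56950) had 40.7, 53.03 and 57.6 CPM in low P, 38.2, 33.1 and 54.8 in medium P, 54.5, 44.6 and 56.9 in high P, and 47.5 and 36.5 in low+P. In phf1, SIP2-1 had 23.3, 59.1 and 51.4 CPM in low P, 45.7, 35.99 and 33.8 in medium P, 38.99, 54.3 and 32.1 in high P, and 30.3 and 37.1 in low+P. In phr1 phl1, SIP2-1 had 28.3 and 29.2 CPM in low P, with 43.3 in the library labelled low+P. Both phr1 phl1 low P values of SIP2-1 lay below the 3 of Col-0, with a log2 fold change of -0.80 (SE 0.36, unadjusted p = 0.0492, adjusted p = 0.639 in edgeR). The gene overlaps another over part of its exons, as given above.

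The long-term soils were compared within each genotype, and the tests across the 4 regimes also held the low+P pots. In Col-0, edgeR called no member across the 4 regimes or between any 2 soils, beside 0.00541% of genes called across the regimes. Across the regimes 2 of 28 had an unadjusted p below 0.05 beside 6.08% of genes, and DESeq2 called both, NIP6-1 (adjusted p = 0.0300) and PIP2-3 (0.0680), beside 1.76% of genes. Their adjusted p in edgeR were 0.790 and 0.804. NIP6-1 was highest in a low+P library (36.6 CPM), and DESeq2 did not call it between any 2 long-term soils.

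PIP2-3 was the member that differed most between Col-0 soils. In Col-0, PIP2-3 (AT2G37180) had 13.2, 6.13 and 33.00 CPM in low P, 554, 149 and 29.4 in medium P, 5.07, 46.5 and 46.5 in high P, and 71.00 and 38.1 in low+P. In phf1, PIP2-3 had 7.34, 3.24 and 38.1 CPM in low P, 12.05, 88.9 and 18.98 in medium P, 11.4, 64.03 and 29.3 in high P, and 41.2 and 11.1 in low+P. In phr1 phl1, PIP2-3 had 21.9 and 21.2 CPM in low P, with 47.5 in the library labelled low+P. Col-0 medium P A and B, with 554 and 149 CPM, were the highest of all libraries, while medium P C, with 29.4, lay within the range of low P. PIP2-2, its tandem neighbour, had the same highest library, Col-0 medium P A, and the same lowest, phf1 low P B. Pearson's r between these copies was 0.625. In Col-0, PIP2-2 (AT2G37170) had 214, 263 and 751 CPM in low P, 1367, 462 and 460.1 in medium P, 171, 1135 and 830.0 in high P, and 266 and 258 in low+P. In phf1, PIP2-2 had 115, 51.6 and 627 CPM in low P, 778, 244 and 171 in medium P, 162, 177 and 509 in high P, and 289 and 113 in low+P. In phr1 phl1, PIP2-2 had 136 and 299.7 CPM in low P, with 307 in the library labelled low+P. PIP2-2 in Col-0 medium P overlapped both low and high P, as PIP2-3 did. In Col-0 high P B and C, PIP2-2 lay above its value in medium P B, whereas PIP2-3 lay below. For low over medium P in Col-0, PIP2-3 had a log2 fold change of -3.77 (SE 1.18, unadjusted p = 0.00994) with an adjusted p of 0.487 in edgeR and 0.0307 in DESeq2. PIP2-5 had -3.36 (SE 1.21, unadjusted p = 0.0201), with 0.534 and 0.0703. Without Col-0 medium P A these became -2.26 and -1.11. DESeq2 called these 2 members, beside 1.92% of genes, and 3 of 28 had an unadjusted p below 0.05 in edgeR beside 7.91% of genes.

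The water deficit genes moved in the same libraries. Their summed level was 1942, 2781 and 846 CPM in Col-0 medium P A, B and C, and 174, 176 and 326 in Col-0 low P. In Col-0 low over medium P, 9 of the 10 genes of that list were lower, 6 with an unadjusted p below 0.05, with a median log2 of -4.20, and none was called. Col-0 high P C was also high, at 2072 CPM, with PIP2-3 at 46.5 CPM. Whether the water status of single pots played a part was not tested. Over the 28 aquaporins the median in low over medium P was 0.01 with 14 in each direction, beside 51.3% of genes positive, and -1.09 without Col-0 low P C.

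For Col-0 low over high P, 0 of 28 members had an unadjusted p below 0.05 beside 6.08% of genes, and edgeR and DESeq2 called no member (0.00541% and 0.766% of genes). The smallest p were those of NIP2-1, with a log2 fold change of 2.34 (SE 1.05, unadjusted p = 0.0514, adjusted p = 0.819 in edgeR), and TIP2-2, with -1.68 (SE 0.81, unadjusted p = 0.0650). In both, values of the groups overlapped. Of the 28 members 13 were higher and 15 lower in low P, with a median of -0.15 beside 48.2% of genes negative, and of -1.40 without Col-0 low P C. For medium over high P, 2 of 28 passed an unadjusted p of 0.05 beside 4.59% of genes, edgeR called no member or gene and DESeq2 no member beside 0.27%. There 15 members were higher and 13 lower in medium P, with a median of 0.02 beside 50.9% of genes positive. The 2 that passed were PIP2-3, at 3.04 (SE 1.14, unadjusted p = 0.0237, adjusted p = 0.992 in edgeR) and at 1.52 without Col-0 medium P A, and NIP1-2. In Col-0, NIP1-2 (AT4G18910) had 46.7, 58.8 and 15.5 CPM in low P, 20.4, 37.8 and 16.04 in medium P, 63.7, 37.8 and 60.5 in high P, and 72.7 and 62.96 in low+P. In phf1, NIP1-2 had 43.4, 78.2 and 50.1 CPM in low P, 30.1, 57.8 and 62.1 in medium P, 39.6, 28.8 and 72.2 in high P, and 70.6 and 62.4 in low+P. In phr1 phl1, NIP1-2 had 73.1 and 67.2 CPM in low P, with 83.5 in the library labelled low+P. NIP1-2 was low in Col-0 medium P, where 2 of the 3 values lay below the lowest of high P. Its log2 fold change in Col-0 was -1.02 (SE 0.45, unadjusted p = 0.0481, adjusted p = 0.992 in edgeR).

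In phf1, no member was called by edgeR or DESeq2 across the regimes (0% and 0.00872% of genes) or between soils, and 1 of 28 had an unadjusted p below 0.05 across the regimes beside 1.57% of genes. This was PIP2-6, a scarce PIP2 channel. In Col-0, PIP2-6 (AT2G39010) had 1.49, 2.45 and 0.971 CPM in low P, 1.06, 2.86 and 0.36 in medium P, 1.27, 0.455 and 0 in high P, and 6.34 and 3.6 in low+P. In phf1, PIP2-6 had 0.319, 1.08 and 0.363 CPM in low P, 4.96, 6.07 and 4.14 in medium P, 2.25, 1.06 and 0.257 in high P, and 0.872 and 0 in low+P. In phr1 phl1, PIP2-6 had 0.585 and 0.379 CPM in low P, with 1.99 in the library labelled low+P. All 3 phf1 medium P values of PIP2-6, 4.14 to 6.07 CPM, lay above every other phf1 library, whereas Col-0 medium P had 0.36 to 2.86 CPM. PIP2-6 had a log2 fold change of -3.10 for low over medium P (SE 0.96, unadjusted p = 0.00864, adjusted p = 0.978 in edgeR), where 1 of 28 members and 3.17% of genes had an unadjusted p below 0.05. For medium over high P it was 2.05 (SE 0.85, unadjusted p = 0.0362, adjusted p = 0.99994). At these levels 1 CPM stands for a few reads.

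PIP2-1 was the other member of note in phf1, at the top of the family in level. It was higher in low P than in high P, by a log2 of 0.95 (SE 0.36, unadjusted p = 0.0249, adjusted p = 0.999 in edgeR), and in medium P than in high P, by 1.04 (SE 0.36, unadjusted p = 0.0164, adjusted p = 0.99994). In those comparisons 1 and 2 of 28 members had an unadjusted p below 0.05, beside 2.89% and 2.21% of genes. All 13 PIPs had a positive fold change in phf1 medium over high P, with a median over the 28 members of 0.42 beside 47.6% of all genes positive. In low over medium P, 23 of the 28 were lower in low P, with a median of -0.51 beside 48.4% of genes negative, and in low over high P 15 were higher and 13 lower, with a median of 0.04 beside 52% of genes positive. The leaf markers were 5 of 5 lower in low P than in medium P (median -3.10), each with an unadjusted p below 0.05. They were also 5 of 5 lower in low than in high P (median -2.68), where 15 aquaporins were higher and 13 lower, and 3 higher and 2 lower in medium over high P. Their part in these differences was not tested.

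**Figure D5:**
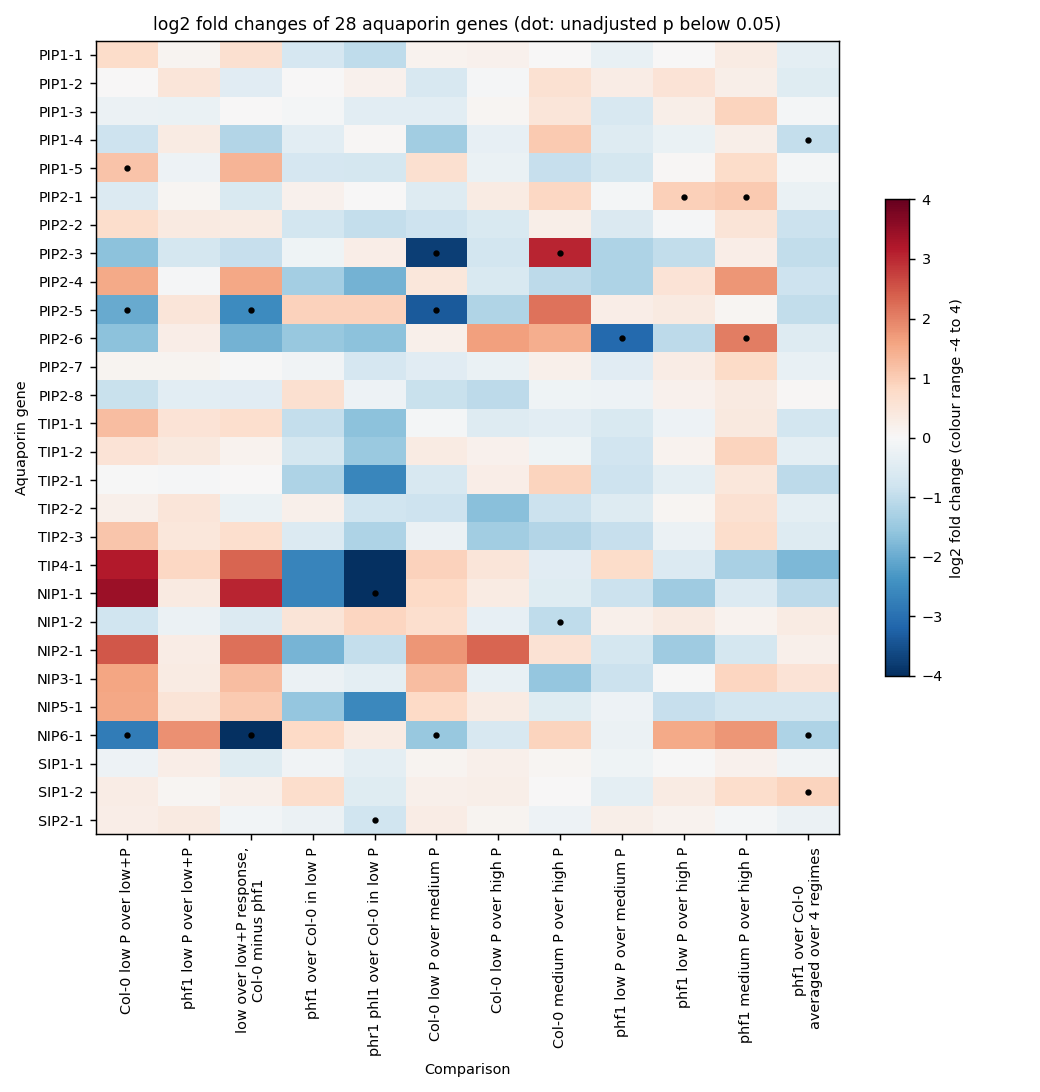
Log2 fold change of the 28 tested aquaporins in the 12 comparisons, as a colour, with a dot where the unadjusted p of edgeR is below 0.05. No member passed an adjusted p of 0.1, and dots are few and fall on NIP6-1, PIP2-3, PIP2-5, PIP2-6, SIP1-2 and a few others.

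The comparison with most libraries set 11 of phf1 against 11 of Col-0, averaged over the 4 regimes. edgeR called 0 of 28 members, beside 0.0714% of 19603 genes. With an unadjusted p below 0.05 there were 3 members beside 12.4% of genes, and DESeq2 called 2, SIP1-2 and NIP6-1, beside 3.08%. SIP1-2, a channel of the endoplasmic reticulum, was the member closest to a call. In Col-0, SIP1-2 (AT5G18290) had 7.95, 7.66 and 4.21 CPM in low P, 5.57, 3.88 and 7.75 in medium P, 4.64, 7.51 and 5.76 in high P, and 4.86 and 5.94 in low+P. In phf1, SIP1-2 had 5.42, 16.9 and 10.5 CPM in low P, 18.4, 11.6 and 13.6 in medium P, 8.44, 6 and 12.9 in high P, and 12.9 and 7.3 in low+P. In phr1 phl1, SIP1-2 had 4.68 and 4.55 CPM in low P, with 16.8 in the library labelled low+P. Of the 11 phf1 libraries 8 lay above the highest Col-0 library (7.95 CPM), and 10 lay above the Col-0 median. The groups did not overlap in medium P and low+P, and they did in low P and high P. Such separation was not particular to SIP1-2. In medium P, phf1 lay above Col-0 for 2 of the 28 members and below for 0. In low+P, with 2 libraries in each group, it lay above for 2 and below for 6. No share over all genes is given. The library labelled phr1 phl1 low+P, with 16.8 CPM, stood with phf1 and not with the other phr1 phl1 libraries, as did its PHR1 count with Col-0 and phf1. The log2 fold change of SIP1-2 was 0.89 (SE 0.21, 95% confidence interval 0.45 to 1.33, unadjusted p = 0.000494), with an adjusted p of 0.130 in edgeR and 0.0103 in DESeq2. Over the edgeR fits with other settings or a library left out the adjusted p ran from 0.0658 to 0.452.

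NIP6-1 was lower in phf1, with a log2 of -1.23 (SE 0.38, unadjusted p = 0.00463) and an adjusted p of 0.216 in edgeR and 0.0747 in DESeq2. Its median was 7.20 CPM in Col-0 and 3.19 in phf1, and the ranges overlapped. PIP1-4, at medians of 154 and 80.8 CPM, had -0.96 (SE 0.33, unadjusted p = 0.0103), with 0.254 and 0.122. All 6 tested TIPs and 12 of 13 PIPs had a negative fold change in phf1. Over the 28 members 5 were higher and 23 lower, with a median of -0.45 beside -0.02 over all genes, of which 53.4% were negative. Without Col-0 low P C the median was -0.22.

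Other lists moved beside these aquaporins between phf1 and Col-0. All 10 water deficit genes were lower in phf1, each with an unadjusted p below 0.05, with a median log2 of -2.55, and none passed the adjustment (smallest adjusted p = 0.128 in edgeR). All 5 leaf markers were higher, each with an unadjusted p below 0.05, with a median of 2.15. Of the 8 clock genes 7 had an unadjusted p below 0.05, the morning genes CCA1 and LHY with log2 fold changes of -1.66 and -1.75 and the evening genes (ELF3, ELF4, GI, LUX and TOC1) with 0.49 to 1.55, and none was called. The summed level of the leaf markers was 13.3 to 91.6 CPM in Col-0 (median 26.6) and 20.3 to 1715 in phf1 (median 107). SIP1-2 rose with the leaf markers over the 25 libraries (r = 0.523 and rho = 0.569, permutation p = 0.0066 and 0.0033, adjusted p = 0.027 and 0.012), with r of 0.421 within Col-0, 0.270 within phf1 and 0.518 without the 2 farthest libraries. The part of leaf RNA, harvest time or soil water in the genotype difference was not tested.

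Across all 10 groups edgeR called no member (0.0153% of genes), and 5 of 28 had an unadjusted p below 0.05 beside 7.27% of genes. DESeq2 called these 5, beside 3.98% of genes. Its adjusted p were 0.00452 for PIP2-6, 0.00826 for NIP6-1, 0.0202 for SIP1-2, 0.0212 for PIP2-3 and 0.0805 for PIP2-5, where the smallest of edgeR was 0.429.

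Genes that act with aquaporins were measured in the same fits. The 14 partners and regulators of PIPs, such as the syntaxins SYP121 and SYP61 that deliver PIPs to the plasma membrane, had a summed level of 603 to 857 CPM. Single members varied more, as TSPO, a protein that directs PIPs to degradation, with 0 to 41.2 CPM. TSPO had a log2 fold change of -4.20 (SE 1.27, unadjusted p = 0.00403, adjusted p = 0.212 in edgeR) in phf1 over Col-0 averaged over regimes. It had no count in 12 of the 25 libraries. Its highest values were 13.5 and 41.2 CPM in Col-0 medium P A and B and 20.9 in Col-0 high P C. RMA1, another listed partner, went the other way in that comparison, at 0.52 (SE 0.21, unadjusted p = 0.0215, adjusted p = 0.315 in edgeR). These values of single partners were picked after they were seen. In phf1 over Col-0 averaged over regimes the 4 tested boric acid exporters and all 5 proton pumps had negative fold changes, and none was called.

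A sequence motif was also looked for in promoters from 250 bases before to 50 after the start of each gene (RefSeq, TAIR10.1). The letters GNATATNC, which PHR1 is known to bind and which read the same on both strands, occurred in 3 of the 35 aquaporin promoters (8.57%), those of PIP2-4, PIP2-6 and TIP2-2, beside 1667 of 26713 promoters in all (6.24%). A match is a description of these letters only.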

How the data were processed

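Aquaporin mRNA was analysed in 25 root libraries of 3 genotypes and 4 P regimes. The file deposited by the authors holds counts, whole numbers per gene and library, without normalization. According to the methods and the submitters' processing notes, the authors demultiplexed with bcl2fastq 2.20.0, inspected reads with FastQC 0.11.7, trimmed adaptors with Trimmomatic 0.36, aligned to TAIR10 with HISAT2 2.1.0 and counted with featureCounts on 27206 nuclear protein-coding genes. For featureCounts, version and strand setting were not given in the sources used here. Single-end reads that fit 2 copies equally well may be lost or misplaced by such counting.

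Columns name the group of a library but neither its replicate number nor its plot. No other columns of per-sample values were present. CPM is relative to the total counts of a library, and levels between genes are CPM per kilobase of annotated exon. Groups were tested with edgeR 4.0.16 (filterByExpr, TMM, quasi-likelihood test) in R 4.3.3 with limma 3.58.1, at a Benjamini-Hochberg adjusted p of 0.1 over all genes of a fit. The 13 low P and low+P libraries (18830 genes), the 11 Col-0 (18469) and 11 phf1 libraries (18606) and all 25 (19603) were fitted separately. A prior count of 0.125 entered fold changes, and an SE is the fold change over the square root of its F statistic. Correlations used 100000 permutations (Python 3.11.15, scipy 1.17.1). The tests were tested on simulated data.

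Alternatives were DESeq2 1.42.0, other size factors, filters and thresholds, a coding length, and each library left out in turn. DESeq2 gave no adjusted p to some genes, which were left out of its counts. The limit for a count of 0 covers counting error only, the interval of a fold change covers the spread between libraries, and total counts of 2368981 to 7408960 limit precision below a few CPM. Names and sequences came from the RefSeq annotation of TAIR10.1, matched by identifier (26714 of 27206 matched, all 35 members among them).

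Named members were the 6 with the highest level, those called by edgeR or DESeq2, the 2 with the smallest p in each comparison, NIP5-1, and PIP2-2 with PIP2-3. The members and lists were chosen with earlier results of these data known.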

Additional observations from a re-analysis of the deposited data

How the results depend on the processing

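Of 1066 recomputed values 1040 counted as unchanged, among them 312 of 318 counts of members called. For fold changes and calls this means the same direction and side of the threshold, and for levels a change below 1 SD. In the main fits every count of members called was 0, so a count was unchanged whenever it was again 0. The medians of the 28 members, and changes in size without a change of sign or call, were not scored. The share unchanged therefore says little about how stable the fold changes are. The stricter threshold of 0.05 was applied to the main fit itself, so it could change neither a fold change nor a count of 0. DESeq2 called 2 members across the Col-0 regimes, 2 in Col-0 low over medium P, 2 in phf1 over Col-0 averaged over regimes and 5 across the 10 groups, where edgeR called 0 in each, and the cause was not tested. As each library was left out, edgeR's count in phf1 over Col-0 averaged over regimes ran from 0 to 1, the 1 being SIP1-2 without Col-0 medium P C (log2 0.94) or without phf1 high P B (0.95). The other counts stayed at 0 throughout these 25 fits. NIP2-1 in phf1 over Col-0 in low P ran from -2.84 to 0.14 as libraries were left out, reversing without Col-0 low P C. That library also turned the sign of the median of the 28 members in Col-0 low P over low+P (0.23 to -0.38) and in phf1 over Col-0 in low P (-0.32 to 0.45), and moved it from -0.15 to -1.40 in Col-0 low over high P, and no cause was tested. Dividing by coding instead of exon length, an alternative added after seeing the data because no table of protein lengths was used, raised the summed mean level from 4877 to 8474 CPM per kilobase by its construction, since coding sequences are shorter. Leaving out the 2 most alike libraries, also added after seeing the data, changed no call but moved the median of the 28 members in phf1 low P over low+P from 0.31 to 0.78. NIP2-1 in Col-0 low over high P had no value without Col-0 low P C or without Col-0 medium P C, since it then missed the filter. No paired analysis was possible because the columns carry neither the replicate number nor the plot of a library. With 1 to 3 libraries per group and a median coefficient of variation of 0.646, the members' fold changes carry wide errors.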
